A study of Homo sapiens with 4 samples.

Results

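Small nucleolar RNAs and the genes that carry them were followed in PC-3M-luc cells after RNA interference against LSD1. The set held the gene symbols beginning with SNHG, SNORA, SNORD or SCARNA, plus GAS5 and EPB41L4A-AS1, with a mean raw read count of at least 10 over the 4 libraries. It held 65 genes, of 411 symbols with these names and of 22841 symbols in the tables. Of the 65, 20 were host genes and 45 were small RNAs, namely 15 SNORA, 22 SNORD and 8 SCARNA genes. Within these names, members were selected on their mean count over both groups together and on no other measured value. The names themselves were chosen with earlier results of these data known. SNHG18, the other host by name, was at 0, and of 390 small RNA symbols 124 were at 0 in every library and 221 more lay below the minimum.

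PC-3M-luc is a metastatic human prostate carcinoma line, grown here in medium with 10% serum and used at passages 17 to 20. The LSD1 RNAi group (2 libraries) was transfected with RNA duplexes against LSD1, and the control RNAi group (2 libraries) with a control. Both were harvested 72 h later, so both underwent transfection, and the knockdown is transient in 1 cell line. LSD1, the product of KDM1A, is a histone demethylase that acts on lysines of histone H3. The series design text speaks of a knockout, whereas the sample labels describe RNAi. The labels call the 2 libraries of a group biological replicates, with no further detail of how they were separated.

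Most small nucleolar RNAs of human cells are cut from the introns of other genes. Box C/D RNAs, the SNORD genes, guide ribose methylation, mainly of ribosomal RNA, and box H/ACA RNAs, the SNORA genes, guide its pseudouridylation. The SCARNA genes encode related guides that gather in Cajal bodies and act on spliceosomal RNAs. Many of the noncoding host genes, such as GAS5 and the SNHG genes, are spliced RNAs whose introns hold the guides, and whose spliced product is often short-lived because ribosomes mark it for nonsense-mediated decay.

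The sequences of 4 of the 7 small RNAs that passed the test of the knockdown are given here, since these short RNAs are what the counts refer to. They are GENCODE transcripts of build GRCh38, written 5′ to 3′ on the strand of the gene, whereas the files use hg19. Capitals mark the C box TGATGA and the D box CTGA in SNORD genes, and the ACA near the end of SNORA genes. The box C/D guides SNORD49B and SNORD104 lie on the plus strand of chromosome 17, with 72 and 70 nt. The box H/ACA guides SNORA67 and SNORA50C lie on the same strand and chromosome, with 137 and 133 nt.
SNORD49B: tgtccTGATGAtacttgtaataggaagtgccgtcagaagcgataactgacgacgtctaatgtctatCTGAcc
SNORD104: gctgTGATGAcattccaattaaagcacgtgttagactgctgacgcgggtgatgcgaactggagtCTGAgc
SNORA67: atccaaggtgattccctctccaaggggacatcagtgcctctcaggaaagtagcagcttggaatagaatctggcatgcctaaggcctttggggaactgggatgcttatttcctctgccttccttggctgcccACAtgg
SNORA50C: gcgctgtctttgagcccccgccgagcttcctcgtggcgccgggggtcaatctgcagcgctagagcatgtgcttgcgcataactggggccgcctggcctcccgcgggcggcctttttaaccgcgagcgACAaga

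GENCODE held a sequence for 42 of the 45 small RNAs, all except SCARNA9L, SNORD139 and SNORD47. The exact letters TGATGA stood within the first 25 bases of 9 of the 20 matched SNORD members, against 69.4% of the 278 SNORD entries annotated. CTGA stood within the last 20 bases of all 20, against 264 of those entries. ACA stood within the last 8 bases of 14 of the 15 SNORA members, the exception being SNORA40, against 89.8% of 147 SNORA entries. These matches describe letters on the gene's own strand, and many C boxes differ from TGATGA by a base. A run of 30 bases was shared with another annotated small RNA in 14 members, and SNORD62A and SNORD62B were identical. This pair lies in PRRC2B and had the same counts in every library (21 and 14 in LSD1 RNAi, 15 and 11 in control RNAi), so their reads cannot be assigned to one or the other.

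The 4 libraries were of similar depth, with 12040681 and 12831374 gene counts in LSD1 RNAi and 12474183 and 12410719 in control RNAi. KDM1A had 218 and 234 counts in LSD1 RNAi libraries and 2920 and 2892 in control RNAi libraries, a log2 fold change of -3.72 (SE 0.0973; adjusted p = 2.56e-24, edgeR's quasi-likelihood test). Here and below a log2 fold change is LSD1 RNAi over control RNAi, adjusted p-values are Benjamini-Hochberg over 13247 tested genes, and a gene is called at an adjusted p under 0.05. CPM are counts scaled to library size, which TMM first adjusts by a trimmed mean of gene ratios. Of the tested genes 4788, or 36.1%, were called, with 18.2% higher and 17.9% lower. The 5 epithelial keratin and adhesion markers summed to 1067 to 1112 CPM in LSD1 RNAi and 998.1 to 1014 CPM in control RNAi. Within this sum CDH1 (log2 1.28), EPCAM (0.504) and KRT8 (0.475) were called higher, and KRT18 (-0.118) and KRT19 (-0.066) were not called. KLK3, PTPRC, CD3E, CDH5 and LUM were at 0 in every library, and TMPRSS2 had under 10 counts in each, in an androgen-independent line. The 4 leukocyte markers summed to 1.081 to 1.555 CPM in LSD1 RNAi and 0.2468 to 0.4827 CPM in control RNAi, with LYZ the highest of them. The 3 endothelial markers summed to 1.622 to 2.209 CPM in LSD1 RNAi and 3.138 to 3.29 CPM in control RNAi, nearly all of it PECAM1. The 4 fibroblast markers summed to 53.17 to 57.62 CPM in LSD1 RNAi and 46.82 to 50.25 CPM in control RNAi, mostly the collagens COL1A1 and COL1A2. The part of these markers in the results below was not tested.

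Of the 20 host genes, 4 were called higher and 4 lower after LSD1 knockdown, or 40.0%, close to the 36.1% of all genes. SNHG16 and SNHG3 rose and SNHG15 fell in each of the 12 other analyses tried. SNHG4 and SNHG29 also passed upward, and SNHG6, SNHG11 and SNHG17 downward, but each of these 5 calls was lost in at least 2 of the 12. The median log2 fold change of the hosts was -0.03, against 0.00 over all genes, so they did not move in a common direction. Groups did not overlap for 12 of the 20 hosts, and for 67.2% of all genes.

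**Figure D1:**
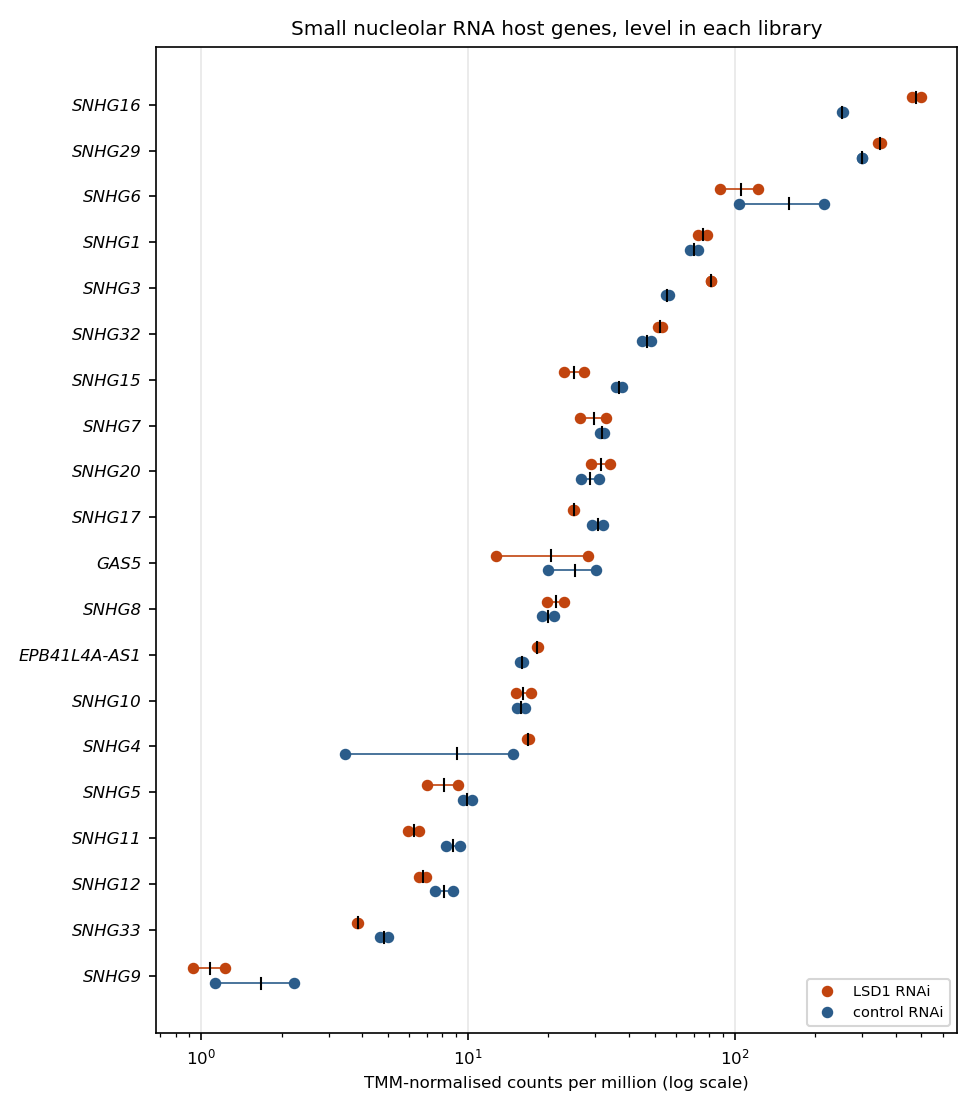
Level of the 20 host genes in each library, in TMM-normalised CPM on a log axis, ordered by mean raw count. Each point is a library, thin lines join the 2 libraries of a group and black ticks mark the group mean; SNHG16, SNHG3 and SNHG15 show clearly separate groups, and the control RNAi libraries of SNHG4 and SNHG6 lie far apart.

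SNHG16, which holds SNORD1A, SNORD1B and SNORD1C in its introns and is widely studied as a long noncoding RNA in tumours, had the highest counts of the set. It had 6068 and 5955 counts in LSD1 RNAi libraries and 3128 and 3080 counts in control RNAi libraries. Libraries of a group differed by at most 1.08-fold in CPM, and both LSD1 RNAi libraries were above both controls. SNHG16 averaged 478 ± 25.8 CPM in LSD1 RNAi and 253 ± 1.20 CPM in control RNAi (SD, n = 2 each), a rise of 1.89-fold (log2 0.92, SE 0.0816; adjusted p = 1.23e-10, edgeR's quasi-likelihood test). Its 4 transcript rows gave the same log2 ratio of means, 0.92.

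SNHG3, which carries the box H/ACA RNAs SNORA73A and SNORA73B, had 998 and 1050 counts in LSD1 RNAi libraries and 703 and 670 in control RNAi libraries. The groups did not overlap, and libraries of a group agreed within 1.03-fold. The mean was 81.4 ± 0.386 CPM in LSD1 RNAi and 55.8 ± 1.02 CPM in control RNAi, 1.46-fold higher (log2 0.54, SE 0.0883; adjusted p = 1.03e-05, edgeR). In GENCODE its exons share 242 nt with RCC1 on the same strand, a gene with a mean of 1726.5 counts, and reads of that stretch cannot be assigned.

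SNHG29 carries SNORD49A, SNORD49B and SNORD65. It had 4201 and 4573 counts in LSD1 RNAi libraries and 3713 and 3655 in control RNAi libraries. Its rise was small, 1.16-fold (log2 0.22, SE 0.0796; adjusted p = 0.0312, edgeR), although the groups did not overlap. The adjusted p was between 0.073 and 0.136 when any 1 library was left out. Its 32 transcript rows gave log2 ratios between 0.04 and 0.30.

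SNHG4, the host of SNORA74A, turned on 1 library. It had 203 and 219 counts in LSD1 RNAi libraries and 43 and 179 in control RNAi libraries. The control libraries differed by 4.26-fold in CPM, and the second stood close to the LSD1 RNAi level. The log2 fold change was 0.89 (SE 0.257; adjusted p = 0.00657, edgeR) with all libraries. Without the first control library it was 0.19, with an adjusted p of 0.447. SNHG4 lies within MATR3, on the same strand, and shares 626 nt of exon with it, which limits the assignment of its reads.

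SNHG15, the host of SNORA9, was the most stable fall among the hosts. It had 279 and 351 counts in LSD1 RNAi libraries and 468 and 434 in control RNAi libraries. Both LSD1 RNAi libraries lay below both controls, at 24.97 ± 3.03 CPM in LSD1 RNAi and 36.7 ± 1.38 CPM in control RNAi (SD, n = 2 each). The log2 fold change was -0.55 (SE 0.109; adjusted p = 0.000149, edgeR), and it lay between -0.68 and -0.44 in the 12 other analyses.

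SNHG6, the host of SNORD87, whose spliced RNA starts with a pyrimidine tract like the mRNAs of ribosomal proteins, had 1078 and 1586 counts in LSD1 RNAi libraries and 1286 and 2628 in control RNAi libraries. The groups overlapped: the second LSD1 RNAi library lay above the first control. The log2 fold change was -0.60 (SE 0.166; adjusted p = 0.00479, edgeR), but 0.03 with an adjusted p of 0.893 without the second control library. DESeq2 gave an adjusted p of 0.482.

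SNHG11 had 73 and 85 counts in LSD1 RNAi libraries and 116 and 100 in control RNAi libraries (log2 -0.48; adjusted p = 0.0301, edgeR). SNHG17, host of the SNORA71 family, had 303 and 324 counts in LSD1 RNAi libraries and 363 and 390 in control RNAi libraries (log2 -0.30; adjusted p = 0.0308, edgeR). In both genes the groups did not overlap, and each call was kept in 7 of the 12 other analyses. SNHG17 gave -0.23 with an adjusted p of 0.208 without the second control library, and SNHG11 gave -0.39 with 0.199 without the first.

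The other 12 hosts did not pass the test. GAS5, which carries 10 annotated box C/D RNAs and whose own RNA accumulates when growth stops, had 155 and 364 counts in LSD1 RNAi libraries and 248 and 368 in control RNAi libraries. Its 2 LSD1 RNAi libraries differed by 2.22-fold in CPM, and the groups overlapped. The log2 fold change was -0.29 with a 95% interval from -0.68 to 0.10 (adjusted p = 0.252, edgeR). It was 0.16 without the first LSD1 RNAi library and -0.98, with an adjusted p of 9.49e-08, without the second. SNHG1, with 963 and 938 counts in LSD1 RNAi libraries and 905 and 822 in control RNAi libraries, had a log2 fold change of 0.11. The intervals of SNHG1 (-0.07 to 0.29) and of SNHG32 (-0.03 to 0.35) leave no room for a change as large as that of SNHG16.

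Among the remaining 9, EPB41L4A-AS1 (0.19), SNHG20 (0.13), SNHG8 (0.10) and SNHG10 (0.03) had log2 fold changes above 0. SNHG7 (-0.10), SNHG12 (-0.27), SNHG5 (-0.30), SNHG33 (-0.33) and SNHG9 (-0.63) had values below 0. SNHG9, the lowest in counts, had 15 and 12 in LSD1 RNAi libraries and 14 and 27 in control RNAi libraries, and its interval ran from -1.44 to 0.18. In SNHG5, SNHG12 and SNHG33 both LSD1 RNAi libraries lay below both controls, and in SNHG32 and EPB41L4A-AS1 both lay above. EPB41L4A-AS1, SNHG7, SNHG29, SNHG10 and SNHG6 share 365 to 1659 nt of exon with a gene on the opposite strand, and whether the counting used strand is not given in the sources used here.

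**Figure D2:**
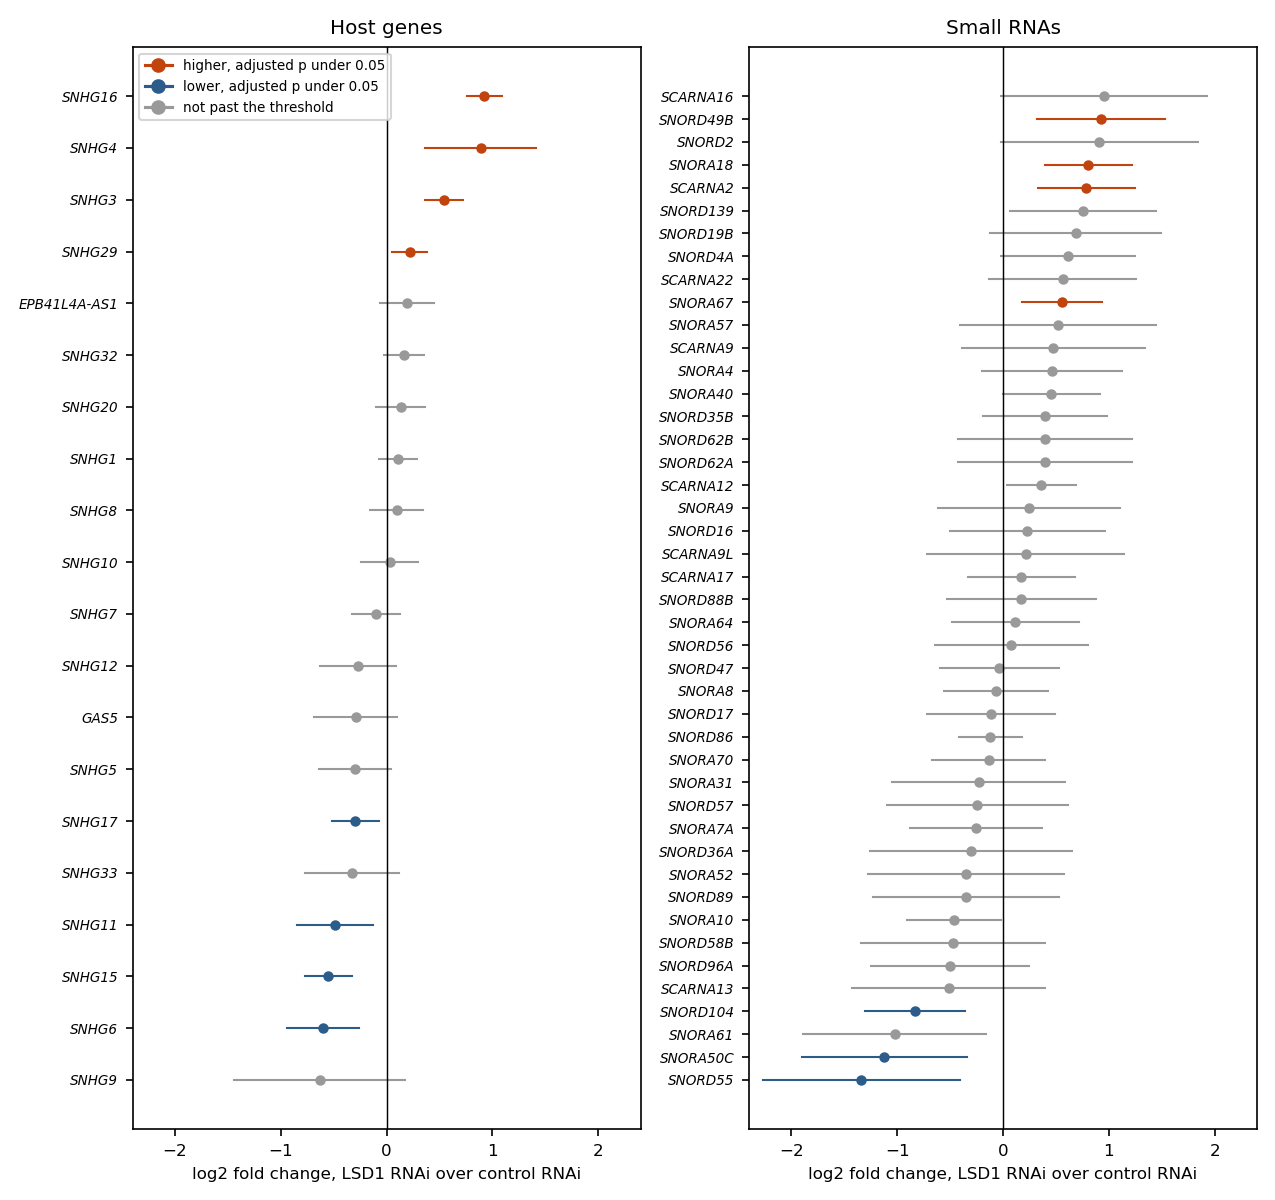
Log2 fold change of each tested member, LSD1 RNAi over control RNAi, with 95% intervals, hosts on the left and small RNAs on the right, colours marking an adjusted p under 0.05 in edgeR's quasi-likelihood test. Host intervals are mostly narrow and 8 of 20 pass; small RNA intervals are wide and 7 of 44 pass, 4 higher and 3 lower.

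Of the 44 small RNAs tested, 4 rose and 3 fell, or 15.9%. Among all genes with mean counts in the same range, 10 to 186.5, 25.5% were called. Only the range was matched: the 45 small RNAs lay low in it, with a median mean of 20.25 counts. SNORD36C did not pass the filter on low counts and was not tested. The median log2 fold change of the small RNAs was 0.17, and groups did not overlap for 24 of the 44, against 67.2% of all genes. The median SE was 0.351 for small RNAs, 0.125 for hosts and 0.109 for all genes, so a small RNA needed a larger change to pass.

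SNORD49B, a box C/D guide of large-subunit ribosomal RNA in an intron of SNHG29, had 40 and 38 counts in LSD1 RNAi libraries and 18 and 22 in control RNAi libraries. The LSD1 RNAi counts were well above the controls, 1.90-fold by the fitted value (log2 0.93, SE 0.298; adjusted p = 0.0143, edgeR). The adjusted p was 0.0919 without the first LSD1 RNAi library, 0.138 without the first control library and 0.144 in DESeq2. SNORD49A, which shares 30 bases with it and lies in the same host, had a mean of 7.25 and fell short of the count minimum, with 11 and 9 counts in LSD1 RNAi libraries and 4 and 5 in control RNAi libraries. Reads of the shared stretch could have gone to either.

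SNORA18, a box H/ACA RNA of TAF1D, a gene for a subunit of the RNA polymerase I selectivity factor, had 109 and 104 counts in LSD1 RNAi libraries and 75 and 44 in control RNAi libraries. Both LSD1 RNAi libraries exceeded both controls (log2 0.81, SE 0.204; adjusted p = 0.00208, edgeR). Without the second control library the value was 0.49 and the adjusted p 0.0969. SNORA40 and SNORA8 of the same gene did not pass: SNORA40 had 81 and 58 counts in LSD1 RNAi libraries and 49 and 50 in control RNAi libraries, and SNORA8 had 46 and 41 in LSD1 RNAi libraries and 46 and 43 in control RNAi libraries. TAF1D itself had a log2 fold change of 0.17 (adjusted p = 0.213).

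SNORA67, carried by the translation initiation factor gene EIF4A1, had 103 and 114 counts in LSD1 RNAi libraries and 61 and 83 in control RNAi libraries (log2 0.56, SE 0.186; adjusted p = 0.0182, edgeR). The groups did not overlap, and without the first control library the value was 0.33, with an adjusted p of 0.28. EIF4A1 had a log2 fold change of -0.09.

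SCARNA2, a guide for a spliceosomal RNA that has no annotated host gene, had 89 and 95 counts in LSD1 RNAi libraries and 35 and 69 in control RNAi libraries (log2 0.79, SE 0.226; adjusted p = 0.00641, edgeR). The groups did not overlap, but the control libraries differed more from each other than the higher one did from the LSD1 RNAi libraries. Without the first control library the log2 fold change was 0.36, with an adjusted p of 0.277.

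The 3 falls were in SNORD104, SNORA50C and SNORD55. SNORD104, a guide in SNHG25, had 37 and 56 counts in LSD1 RNAi libraries and 64 and 98 in control RNAi libraries (log2 -0.84, SE 0.232; adjusted p = 0.00489, edgeR). SNORA50C, in the same host, had 10 and 12 counts in LSD1 RNAi libraries and 22 and 25 in control RNAi libraries (log2 -1.12, SE 0.381; adjusted p = 0.0203, edgeR). SNORD55, another box C/D guide, had 8 and 6 counts in LSD1 RNAi libraries and 15 and 20 in control RNAi libraries. Its log2 fold change was -1.34 (SE 0.458; adjusted p = 0.0211, edgeR). SNORD55 reached the 10 counts of the filter only in control RNAi, the group where it was high. Its call is therefore no separate support for a fall.

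In all 3, both LSD1 RNAi libraries lay below both controls. SNHG25 itself was not among the symbols matched to the counts, so these 2 guides could not be set beside their host. Without the second control library SNORD104 gave -0.48 with an adjusted p of 0.203 and SNORD55 gave -1.10 with 0.227. SNORA50C gave -1.04 with 0.111 without the first LSD1 RNAi library and missed the threshold without any 1 library.

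**Figure D3:**
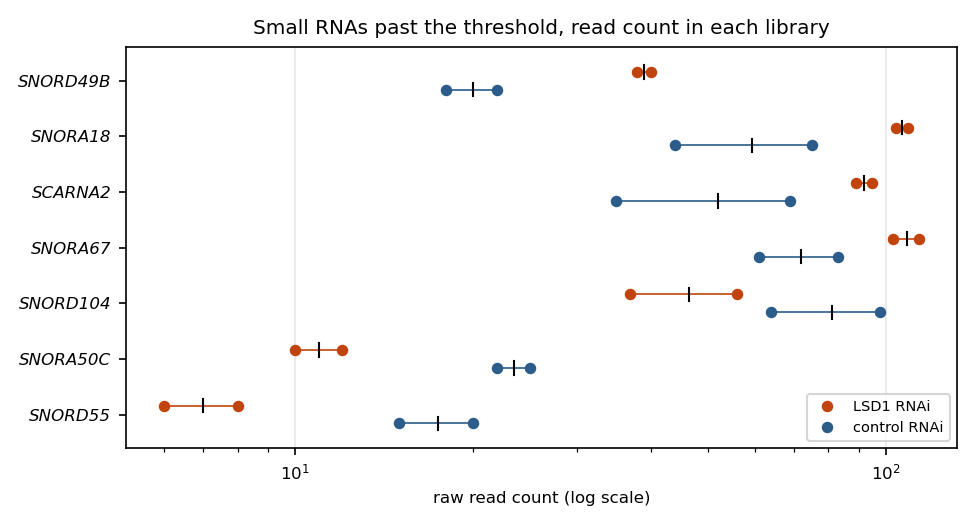
Raw read counts of the 7 small RNAs past the threshold in each library, on a log axis, ordered by log2 fold change. Points are libraries and black ticks group means; the groups are apart in all 7, with 6 to 114 counts in LSD1 RNAi and 15 to 98 in control RNAi.

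The small RNA with the most counts was SNORD86, which lies in NOP56, the gene of a core box C/D protein, where it is known to take part in control of its host's splicing. It had 156 and 206 counts in LSD1 RNAi libraries and 169 and 215 in control RNAi libraries, and the groups overlapped (log2 -0.12; 95% interval -0.42 to 0.17). SCARNA12, a Cajal body guide in PHB2, had 121 and 157 counts in LSD1 RNAi libraries and 102 and 109 in control RNAi libraries, with groups apart but an adjusted p of 0.0782 (log2 0.36, edgeR). The 8 SCARNA genes together summed to 27.0 and 29.2 CPM in LSD1 RNAi libraries and 18.5 and 23.2 CPM in control RNAi libraries. Most of that difference lay in SCARNA12 and SCARNA2. SCARNA12 averaged 11.0 CPM in LSD1 RNAi and 8.59 CPM in control RNAi, and SCARNA2 averaged 7.31 and 4.25 CPM. SCARNA13 went the other way (log2 -0.52). The median log2 fold change of the 8 was 0.42, with 1 of 8 called (12.5%, beside the 25.5%).

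By class, 2 of 15 SNORA genes rose and 1 fell (20.0% called, beside 25.5% of all genes in the same count range), with a median log2 fold change of -0.07. Of 21 tested SNORD genes, 1 rose and 2 fell (14.3%), with a median of 0.08. Summed over all 45 small RNAs, the level was 124 and 127 CPM in LSD1 RNAi libraries and 110 and 118 CPM in control RNAi libraries. The summed hosts had 1359 and 1382 CPM in LSD1 RNAi libraries and 1067 and 1196 CPM in control RNAi libraries. Most of the host difference sat in SNHG16 and SNHG29: without them the sums were 519 and 569 CPM in LSD1 RNAi and 517 and 642 CPM in control RNAi, which overlap. With 2 libraries a group, an exact permutation test of such a sum cannot give a two-sided p under 0.333. In bulk RNA such sums cannot tell fewer cells with an RNA from less RNA in each cell.

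Few guides of the host genes reached the count minimum. The 20 hosts contained 48 annotated small RNAs with a row in the tables, of which 6 reached the minimum of 10, 41 lay between 0 and 10, and 1 was at 0 throughout. SNHG16, at a mean of 4557.75 counts, carries SNORD1A with 5 and 2 counts in LSD1 RNAi libraries and 3 and 1 in control RNAi libraries. SNORD1B and SNORD1C had no more than 4 counts in any library, so the rise of the host could not be looked for in its guides at this depth. In SNHG1 the 8 guides had means of at most 8.75 counts, and in SNHG6 the guide SNORD87 had a mean of 0.5.

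The 6 guides that reached the minimum within a host of the set were SNORD49B in SNHG29, SNORA9 in SNHG15, SCARNA16 in SNHG20, SNORD47 in GAS5, SCARNA13 in SNHG10 and SNORA61 in SNHG12. Of these, SNORD49B alone was called. SNORA9 had 24 and 10 counts in LSD1 RNAi libraries and 16 and 12 in control RNAi libraries, overlapping, while its host SNHG15 fell. SNORD47 had 35 and 36 counts in LSD1 RNAi libraries and 29 and 42 in control RNAi libraries, whereas the LSD1 RNAi libraries of GAS5 had 155 and 364. SCARNA16 had 14 and 14 counts in LSD1 RNAi libraries and 6 and 8 in control RNAi libraries (log2 0.95; adjusted p = 0.119, edgeR). It reached the 10 counts of the filter only in LSD1 RNAi, the group where it was high.

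Over 40 small RNAs tested together with their host, in 33 distinct hosts, 24 had the same sign of change as the host. The correlation of the log2 fold changes was 0.29 (Pearson) and 0.35 (Spearman), given as a description, since guides of 1 host share its value and all share the same 4 libraries. Among the 6 small RNAs whose host was called, 1 was itself called. The count of SNORD49B per 1000 counts of SNHG29 was 9.52 and 8.31 in LSD1 RNAi libraries and 4.85 and 6.02 in control RNAi libraries, higher in both LSD1 RNAi libraries than in either control. The count of SNORA67 per 1000 counts of EIF4A1 was 12.9 and 13.6 in LSD1 RNAi libraries and 7.34 and 9.54 in control RNAi libraries.

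**Figure D4:**
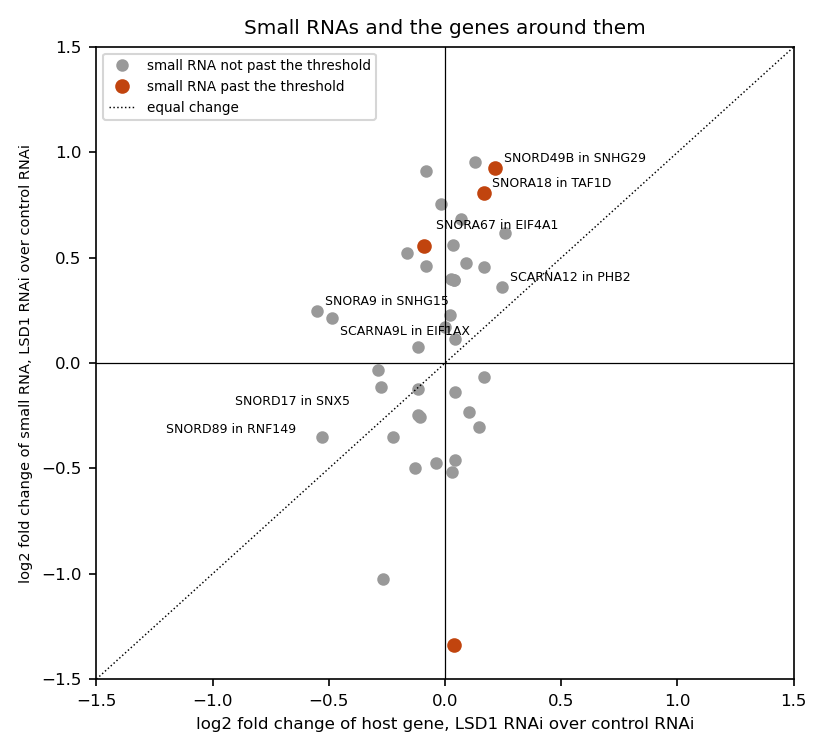
Log2 fold change of 40 small RNAs against that of the gene around them, LSD1 RNAi over control RNAi, with most pairs named where either was called. Hosts lie within a narrow band and small RNAs spread widely above and below it; SNORD49B and SNHG29 are the only called pair.

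A small RNA inside a host exon shares reads with it. Of 41 small RNAs placed with a host in GENCODE, 29 lay fully within an exon of some host transcript, among them transcripts that keep the intron, 4 partly and 8 outside. Per length, 5 of 37 small RNAs had a higher read density than the counted transcript of their host. SNORD86 had 217 counts per 100 nt and NOP56 had 185, the latter on a noncoding transcript of the gene. SNORA18 had 62.9 and SNORA40 47.2, against 31.9 for TAF1D. SNORA57 had 7.89, against 1.85 for its host CSKMT, and SNORD4A had 37.5, against 22.9 for RPL23A. In the other 32 the host was denser, as in SNORD49B, with 41.0 counts per 100 nt and 397 for SNHG29. How much of any small RNA's count came from precursor RNA was not tested, and size selection of the RNA is not given in the sources used here.

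**Figure D5:**
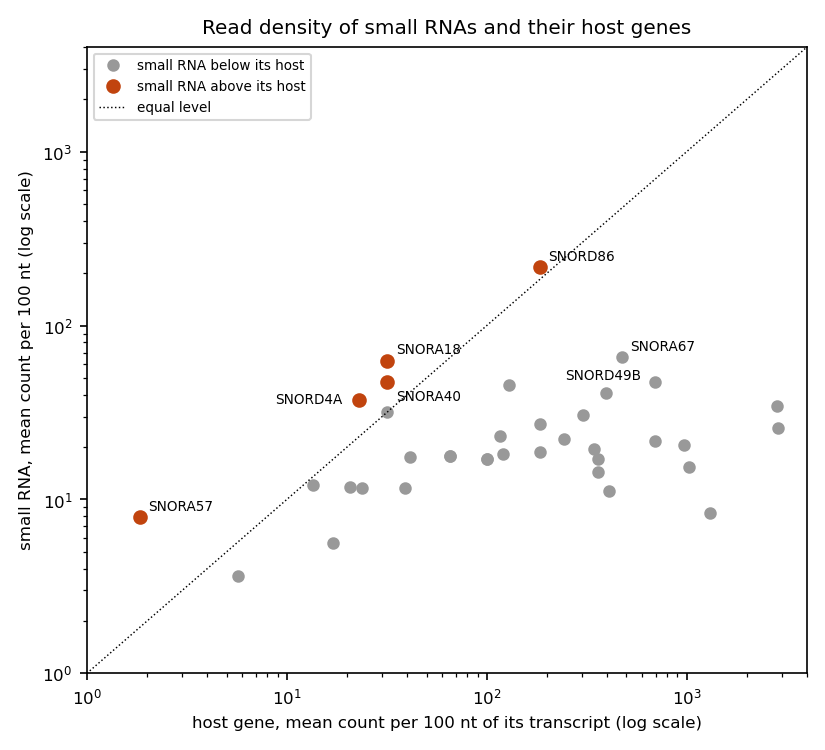
Mean raw count per 100 nt of 37 small RNAs against that of the counted transcript of their host, both on log axes. Points above the dotted line, 5 of 37, are small RNAs denser than their host; SNORD86 and NOP56 lie near the line, and SNORD49B and SNORA67 lie below it.

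At the minimum of 10 counts, 10 small RNAs lay within 3 counts inside, at means of 10.5 to 12.75, and 18 within 3 counts outside, at 7.25 to 9.75. Of those outside, 4 passed the filter of the fit. These were SNORD5, SNORD110, SNORA68 and SNORA23, with log2 fold changes of 1.98, 0.90, -0.70 and -0.35, and SNORD5 alone was called in edgeR. SNORD5 had 13 and 12 counts in LSD1 RNAi libraries and 2 and 4 in control RNAi libraries. It reached the 10 counts of the filter only in LSD1 RNAi, the group where it was high. Its call is therefore no separate support for a rise.

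The proteins that hold, assemble and trim these RNAs were taken from lists of known factors, whose counts stand beside the 36.1% of all genes called in edgeR. Of the 4 core proteins of box C/D particles 0 were called, with a median log2 fold change of -0.11 and a range from -0.18 to 0.13. In edgeR 0 of them had an unadjusted p under 0.05, and DESeq2 and limma-voom called 0. For NOP56 the row counted was that of a noncoding transcript of the gene. Of the 4 H/ACA core proteins, GAR1 fell, at 38.0 ± 0.983 CPM in LSD1 RNAi and 47.0 ± 4.78 CPM in control RNAi (log2 -0.31; adjusted p = 0.0145, edgeR), a call that DESeq2 did not make. Of 9 assembly factors, the box C/D factor ZNHIT6 (0.29) and the chaperone adaptor PIH1D1 (0.29) rose, and ZNHIT3 (-0.47) and the ATPase RUVBL2 (-0.23) fell, or 44.4%, and DESeq2 called 1 of the 9 higher and 1 lower. Of 5 Cajal body and nucleolar chaperone proteins, 40.0% were called. WRAP53, which brings scaRNAs to Cajal bodies, rose by 0.52 on the log2 scale, and TCOF1, a nucleolar protein of ribosomal RNA synthesis, fell by 0.32. DESeq2 called 0 of these 5 higher and 1 lower.

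Among 6 proteins of the U3 processome, IMP3 (0.30) and IMP4 (0.36) rose and 0 fell in edgeR (33.3%), with 1 lower at an unadjusted p under 0.05. DESeq2 called 1 of the 6 higher and 0 lower, and limma-voom 3 higher and 0 lower. Among 10 nonsense-mediated decay factors only UPF1, the central helicase of that pathway, was called, at 290 ± 24.1 CPM in LSD1 RNAi and 181 ± 7.26 CPM in control RNAi (log2 0.68; adjusted p = 8.54e-08, edgeR). This was 10.0% of the list, DESeq2 also called 1 higher, and the median of the 10 was 0.02. Of 15 exosome and trimming enzymes, XRN1, EXOSC2 and EXOSC6 rose and 4 fell in edgeR, or 46.7%. DESeq2 called 0 of the 15 higher and 1 lower. The largest fall there was the exosome subunit EXOSC3, at 15.9 ± 0.647 CPM in LSD1 RNAi and 28.7 ± 1.60 CPM in control RNAi (log2 -0.85; adjusted p = 8.69e-07, edgeR). DBR1, the enzyme that opens intron lariats so that guides can be trimmed, fell by 0.48 on the log2 scale. Across these lists the medians lay between -0.11 and 0.13, with rises and falls mixed, beside 0.00 for all genes.

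Among 47 protein-coding genes known to carry small nucleolar RNAs, 3 rose and 4 fell, or 14.9%, against 36.1% of all genes. Their median absolute log2 fold change was 0.10, against 0.23 over all genes. TNPO2, a nuclear import receptor, rose by 0.79 and TBRG4, a mitochondrial protein, by 0.51. The falls were small, RPS20 (-0.32), SNX5 (-0.28), RPS12 (-0.22) and RPSA (-0.22), and DESeq2 called 3 of the 47 higher and 1 lower. The list does not hold every host of the guides described: outside it, RNF149 (-0.53; adjusted p = 0.000122) and EIF1AX (-0.49; adjusted p = 4.15e-05) fell and PHB2 (0.24; adjusted p = 0.0236) rose in edgeR. Of 2 further noncoding hosts, DANCR, which carries SNORA26, rose about as much as SNHG16, at 150 ± 1.48 CPM in LSD1 RNAi and 78.6 ± 8.14 CPM in control RNAi (log2 0.94; adjusted p = 3.74e-10, edgeR). ZFAS1 did not pass, at a log2 fold change of 0.10.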

How the data were processed

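RNA of PC-3M-luc cells was sequenced in 2 LSD1 RNAi and 2 control RNAi libraries. Each library's deposited table holds raw counts by RefSeq transcript, not normalized, judged from whole numbers that sum to 22855909 to 24348184 over all rows. The submitters' processing notes name TopHat2, HOMER, edgeR, DESeq 1.8.3 and hg19 but give them no role. The kit, the strand and how reads were counted are not given in the sources at hand. Of 38767 rows, 37205 matched a symbol in RefSeq and 472 in GENCODE. The other 1090, with 1.38% to 1.40% of the counts, were left out. The row with the highest mean stood for a symbol.

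Counts were scaled by TMM, filtered with filterByExpr (count of 10, total of 15) and tested by edgeR's quasi-likelihood test (version 4.0.16, R 4.3.3) on group alone. Intervals use the t distribution of that test. With 2 libraries a group, the spread is shared across genes (biological coefficient of variation 5.96%), and p-values measure the spread between these libraries, which may be technical. The scripts were tested on simulated data. A floor of 3 counts was 0.234 to 0.249 CPM and covers counting error only.

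Hosts and exon overlap came from GENCODE and RefSeq on GRCh38, so no coordinates are given. The set and all lists were chosen with earlier results of these data known. Named genes were KDM1A, every host, every called small RNA with its host, the 5 small RNAs with the highest mean and called genes of the lists, up to 4 a list. Guides below the minimum, uncalled neighbours of called guides and some list members were named after their values were seen. Other settings tried were size factors from DESeq2, library sizes left as they were, all genes kept, genes kept at 1 CPM, the DESeq2 test (1.42.0), voom in limma 3.58.1, a replicate block, sums over rows and leaving out each library. Some items are not reported here.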

Additional observations from a re-analysis of the deposited data

How the results depend on the processing

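SNHG16, SNHG3 and SNHG15, of 15 called members, kept their call in all 12 other analyses. DESeq2 called 1564 genes higher and 1618 lower, with 4 hosts and 1 small RNA, against 8 and 7 in edgeR, and gave no adjusted p for SNHG9, SNORA50C and SNORD55. Leaving out 1 library gave 1772 to 1988 genes higher, 1889 to 1998 lower, 5 to 6 hosts and 3 to 7 small RNAs, and the lone library of a group was assumed to vary like the others. Without the first LSD1 RNAi library the log2 fold change turned for GAS5 (0.16), SNHG10 (-0.073), SNHG7 (0.047) and SNHG8 (-0.019). Without the second control library it turned for GAS5 (0.039), SNHG10 (-0.021) and SNHG6 (0.026). The other end of the range over the left-out libraries was -0.98 for GAS5, 0.12 for SNHG10, -0.27 for SNHG7, 0.21 for SNHG8 and -1.04 for SNHG6. The cause was not tested. No normalization factor moved the median of all genes to 0.04, with 2757 higher and 2091 lower, and 7 hosts. A member minimum of 5 or 20 counts gave 8 and 5 called small RNAs. With the replicate number as a block, 2632 genes were higher and 2636 lower, with 9 hosts, GAS5 included (-0.33; adjusted p = 0.0325, edgeR), and 7 small RNAs. Same-numbered deviations correlated at 0.08 over all tested genes and at 0.14 over those with a mean of at least 50 counts. There are 2 pairs only and the labels name no shared batch. Whether same-numbered libraries share more than a number is therefore not known. Small RNA counts of 6 to 215 a library limit what could pass.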

Other observations

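The imprinted guide clusters were at or near 0 in these libraries. All 47 SNORD115 symbols and all 38 SNORD113 and SNORD114 symbols were at 0 in every library. Of 29 SNORD116 symbols 11 were at 0, and the highest, SNORD116-4, had a mean of 7.75 counts, with no library above 10. A count of 0 allows up to 3 counts in a library, and this covers counting error only. How reads that match several copies of a family were counted is not given in the sources used here. A count of 0 therefore need not mean that the RNA was absent.

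TERC, the telomerase RNA, which has an H/ACA domain, had 0 and 2 counts in LSD1 RNAi libraries and 5 and 5 in control RNAi libraries, too few for a test. RMRP, a relative of the RNase P RNA that acts in ribosomal RNA processing, had 385 and 263 counts in LSD1 RNAi libraries and 428 and 354 in control RNAi libraries (log2 -0.30; adjusted p = 0.0811, edgeR). RPPH1, the RNase P RNA, had 35 and 36 counts in LSD1 RNAi libraries and 34 and 34 in control RNAi libraries (log2 0.03).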
